A study of Homo sapiens with 3 samples.

Results

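The 50 genes described here encode the subunits of the proteasome, its activators and inhibitor, and the chaperones that assemble it. They were taken by symbol from a table of 60930 entries, as every gene named PSMA, PSMB, PSMC, PSMD, PSME, PSMF or PSMG with a number, plus POMP and ADRM1, and pseudogenes and antisense transcripts were left out. Of the 50, 49 reached a mean of 1 TPM over the libraries and were compared with shCON beside all 13637 genes past that minimum. TPM is a transcript's reads divided by its length and scaled so that every library has the same total. RNA-seq covered 3 libraries of PC3, an androgen-independent human prostate cancer cell line. The group shCON was the control, named a vector control in the study's account of its PC3 lines. The groups shUSP16#1 and shUSP16#2 each carried a different hairpin against USP16, a deubiquitinase known for removing ubiquitin from histone H2A. All 3 lines were stable, with puromycin selection and the USP16 hairpins in the vector pLKO.1. Whether the lines were clones was not given in the sources used here. There was 1 library per line, so no difference below has a replicate check, and no p-value or standard deviation over samples exists.

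The proteasome is the cell's main machine for degrading proteins tagged with ubiquitin. Its core particle is a barrel of stacked rings, in which outer α rings gate the entrance and inner β rings hold the active sites. A regulatory particle caps the barrel: its lid and base bind and strip ubiquitin, and the base ATPases unfold the substrate and thread it into the core. Interferon signalling can replace the catalytic subunits with immunoproteasome forms, which favour the production of peptides for antigen presentation.

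USP16 itself was at 19.9, 3.50 and 1.08 TPM in shCON, shUSP16#1 and shUSP16#2, so the targeted gene was lowest in the library of the second hairpin. Changes are given as log2(TPM + 1) under a hairpin minus the same in shCON, and both comparisons use the same shCON library. Over all tested genes the median change was -0.17 for the first hairpin and -0.37 for the second, so changes relative to these medians are given where they alter a direction. TPM keeps no record of read depth, so the precision that depth would give is unknown. The epithelial markers KRT8, KRT18, EPCAM and CDH1 were present in every library, with a summed level of 2035, 1617 and 1718 TPM in shCON, shUSP16#1 and shUSP16#2. Markers of leukocytes, fibroblasts and endothelium were under 1 TPM in every library for 10 of 12 genes. The exceptions were COL1A1, at 4.19, 10.7 and 4.78 TPM in the same order, and PECAM1, at 0.14, 0.72 and 1.28 TPM. In such bulk samples, fewer cells of a type and less RNA per cell cannot be told apart.

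Most proteasome genes were lower in both knockdown libraries than in shCON. By median the regulatory particle was lower by more than the core particle, though as measured not by more than the core's α ring. The constitutive catalytic subunits hardly moved, and the immunoproteasome subunits PSMB8 and PSMB9 were higher. Of the 49 tested genes, 40 were lower under both hairpins, where 57.2% of all tested genes were, and 7 were higher under both, where 24.5% of all tested genes were. PSMB4 and PSMB10 had opposite signs under the hairpins, as 17.4% of all tested genes did. A fall of at least 1.5-fold under both hairpins was found for 14 of the 49, or 28.6%, against 20.8% of all tested genes. No proteasome gene rose by at least 1.5-fold under both hairpins, where 4.05% of all tested genes did. With shUSP16#1 alone 16 members were lower by this fold and none higher, beside 23.2% and 8.73% of all tested genes. With shUSP16#2 alone 21 were lower and 2 higher, beside 38.5% and 7.33%. At a milder ratio of 5 to 4, 23 members were lower and 3 higher under both, beside 36.1% and 9.88% of all tested genes. At 2-fold 3 were lower and none higher, beside 4.6% and 1.14%. With 1 library per condition there was no test behind this fold, and in what follows "fell" and "rose" mean that it was passed under both hairpins.

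The 14 genes that fell were the α ring subunits PSMA1, PSMA3 and PSMA4, the testis form PSMA8, the ATPases PSMC1 and PSMC6, the base scaffold PSMD1, the lid subunits PSMD6, PSMD11, PSMD12 and PSMD14, the chaperones PSMD5 and POMP, and the activator PSME4. Relative to the median of all genes, 7 of them passed the fold (PSMA3, PSMA8, PSMC1, PSMC6, PSMD1, PSMD12 and PSME4), and PSMB8 and PSME1 then passed it upwards, where 11.2% of all tested genes were lower and 9.74% were higher. On that scale 25 members were lower and 18 higher under both hairpins, against 41.7% of all tested genes in each direction. The 18 were PSMA6, PSMB3, PSMB4, PSMB5, PSMB6, PSMB7, PSMB8, PSMB9, PSMB10, PSMC3, ADRM1, PSMD8, PSMD13, PSMD9, PSMG3, PSMG4, PSME1 and PSME2. The number of members lower under both hairpins was thus 25 rather than 40 once the shift of all genes was taken off, and the number past the fold was 7 rather than 14.

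**Figure D1:**
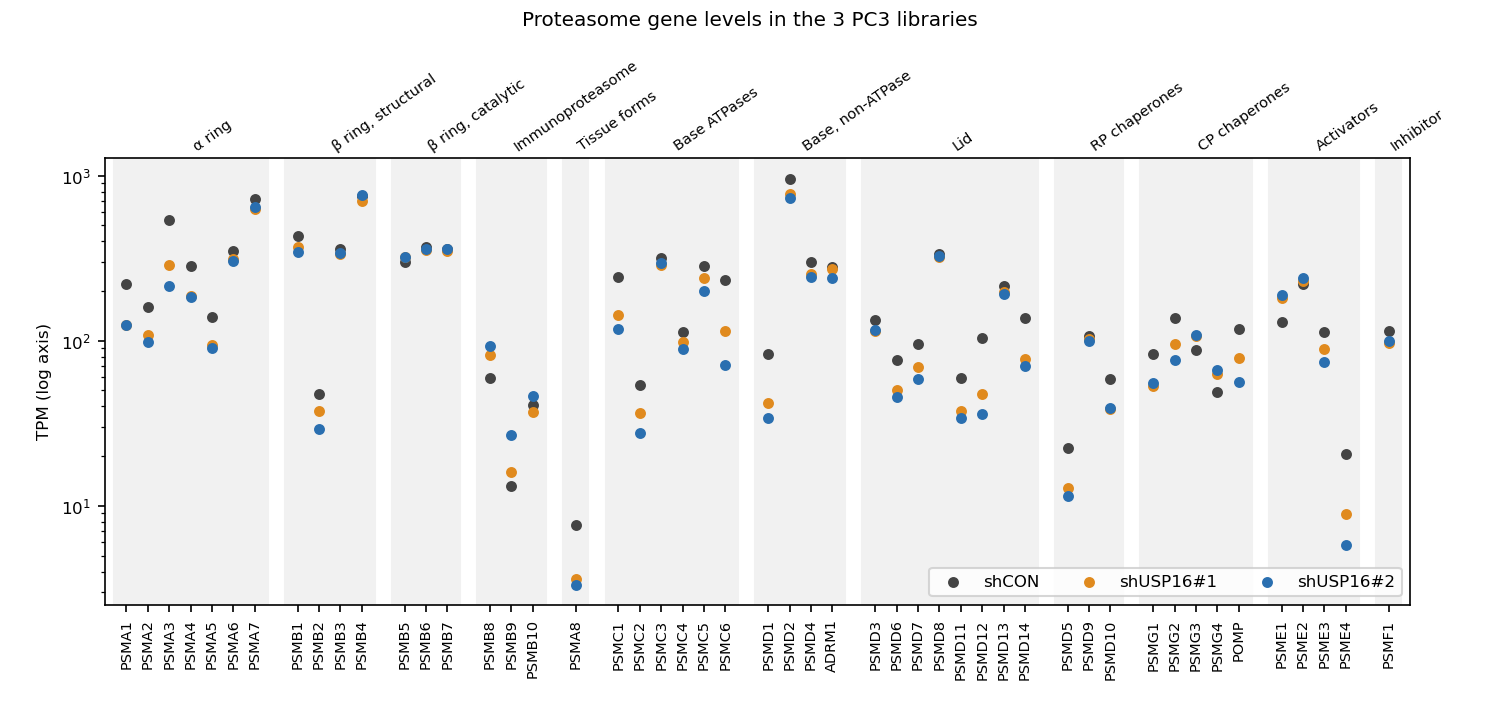
TPM of the 49 proteasome genes past the minimum in each library (log axis), grouped by role, with 1 point per library. PSMD2 is the highest point, at 958 TPM in shCON, PSMA8 the lowest, at 3.34 TPM under shUSP16#2, and the catalytic subunits PSMB5, PSMB6 and PSMB7 lie together between 302 and 370 TPM.

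Proteasome genes were abundant in PC3. Their summed level was 10438, 8684 and 8386 TPM in shCON, shUSP16#1 and shUSP16#2, or 1.05%, 0.869% and 0.843% of all TPM in these libraries. Within shCON the level ran from 7.64 TPM for PSMA8 to 958 TPM for PSMD2, the base scaffold that binds shuttle factors, among the genes past the minimum. PSMB4 followed at 755 TPM, PSMA7 at 719 TPM and PSMA3 at 535 TPM. Although each core subunit occurs in equal copy number in the finished particle, the highest of the 14 core genes was 15.9 times the lowest in shCON and 18.6 and 26.1 times the lowest in the knockdown libraries. The corresponding ratios among the 18 genes of the regulatory particle were 17.9, 21.3 and 26.3. The spread of levels between subunits was thus wider in both knockdown libraries than in shCON for both particles. Summed over its genes, the core particle stood at 83.6% of shCON under shUSP16#1 and 82.8% under shUSP16#2. The regulatory particle stood at 79.0% and 72.7%.

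**Figure D2:**
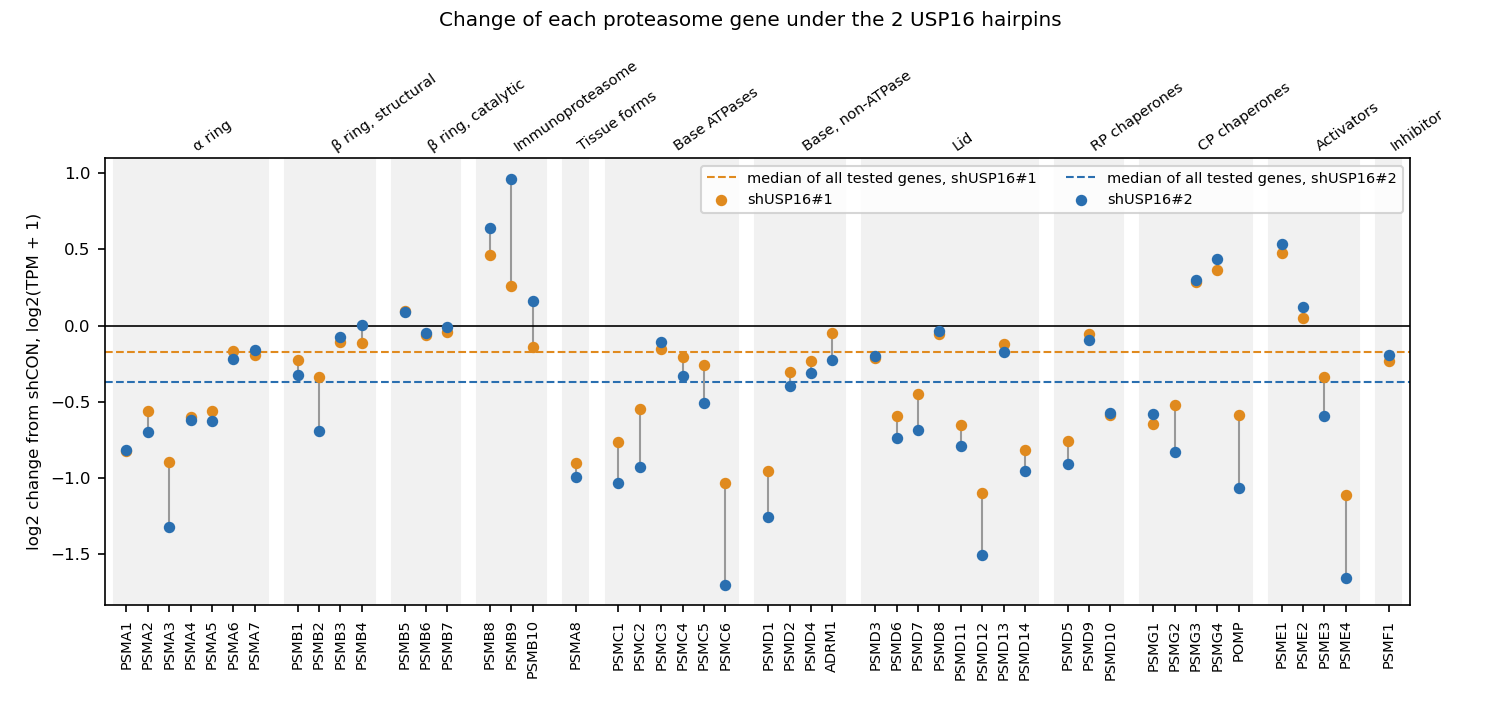
Change in log2(TPM + 1) from shCON for the 49 proteasome genes, by role, with 1 point per hairpin library and dashed lines at the median of all tested genes (-0.17 and -0.37). PSMC6, PSMD12 and PSME4 lie lowest, PSMB8, PSMB9 and PSME1 highest, and the points between zero and the dashed lines change sign when taken relative to the median.

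The α ring, whose N-terminal tails close the gate of the barrel, was lower for all 7 genes under both hairpins. Over all tested genes 57.2% were lower under both. The median change of the α ring was -0.56 under shUSP16#1 and -0.63 under shUSP16#2. PSMA3 had the largest fall of the ring, from 535 TPM in shCON to 287 TPM under shUSP16#1 and 213 TPM under shUSP16#2, changes of -0.89 and -1.32. Its antisense partner PSMA3-AS1 was at 42.5, 29.2 and 20.1 TPM, lower in the same order. PSMA1 fell from 219.8 TPM to 124 and 125 TPM, equally low in both knockdown libraries. PSMA4 fell from 284 TPM to 187 and 184 TPM, which is also nearly the same under both hairpins. PSMA2 went from 159.7 TPM to 108 and 98.2 TPM and PSMA5 from 139 TPM to 94.1 and 89.9 TPM, past 1.5-fold under shUSP16#2 alone. The remaining α subunits moved little as measured. PSMA6 was at 351, 313 and 302 TPM in shCON, shUSP16#1 and shUSP16#2, and PSMA7 was at 719, 629 and 645 TPM. Their changes of -0.17 and -0.22 for PSMA6 and -0.19 and -0.16 for PSMA7 were near or above the median of all genes. As a ring that takes 1 copy of each of these proteins on each side, the α ring therefore showed unequal changes of its transcripts, from a ratio to shCON of 0.398 for PSMA3 to 0.897 for PSMA7 under shUSP16#2. With the trend of GC content removed, as described below, the order differed. PSMA7 was then at -0.39 and -0.44, below PSMA2, PSMA4 and PSMA5, and PSMA6 was at 0.28 and 0.46. PSMA1, at -0.74 and -0.68, and PSMA3, at -0.50 and -0.67, remained the lowest.

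Among the structural β subunits, PSMB1 was at 432, 368 and 345 TPM, and PSMB3 at 361, 335 and 342 TPM. PSMB4, the most abundant β gene, was at 755, 699 and 759 TPM, lower than shCON under the first hairpin and level with it under the second. PSMB2 was the lowest of the core genes at 47.6, 37.5 and 29.1 TPM, a change of -0.69 under shUSP16#2 that passed 1.5-fold there only. The median of these 4 genes was -0.17 and -0.20, and taken relative to all genes it was 0.0010 and 0.17.

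The constitutive catalytic subunits were the steadiest group. PSMB5, the chymotrypsin-like subunit and the target of bortezomib, was at 302, 322 and 322 TPM in shCON, shUSP16#1 and shUSP16#2. PSMB6, the caspase-like subunit, was at 369.5, 354 and 358 TPM. PSMB7, the trypsin-like subunit, was at 360.4, 351 and 359 TPM. All 3 thus stayed within 0.10 of shCON on the log2 scale, and their sum was 1032, 1027 and 1038 TPM. Their median change of -0.040 and -0.0059 became 0.13 and 0.36 relative to all genes. The genes were also nearly equal to each other, the highest being 1.23 times the lowest in shCON and 1.12 times under shUSP16#2.

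The immunoproteasome subunits were far less abundant, at 114, 135 and 166 TPM in sum, and on balance moved the other way. PSMB8, which takes the place of PSMB5, was at 59.3, 82.2 and 93.04 TPM in shCON, shUSP16#1 and shUSP16#2, changes of 0.46 and 0.64. PSMB9, which replaces PSMB6, was at 13.2, 16.02 and 26.7 TPM, changes of 0.26 and 0.96. PSMB10, which replaces PSMB7, was at 41.1, 37.2 and 46.0 TPM, below shCON under the first hairpin and above it under the second. Under shUSP16#2 all 3 were above shCON and PSMB8 and PSMB9 passed 1.5-fold, where 7.33% of all tested genes were higher by that fold, while none of the 3 passed it under shUSP16#1. The median of the group was 0.26 and 0.64. It exceeded the median of the constitutive partners by 0.30 under shUSP16#1 and by 0.65 under shUSP16#2.

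Set pair by pair, the immunoproteasome form made up 16.4%, 20.3% and 22.4% of the summed TPM of PSMB8 and PSMB5 in shCON, shUSP16#1 and shUSP16#2. For PSMB9 and PSMB6 the share was 3.45%, 4.32% and 6.94%. For PSMB10 and PSMB7 it was 10.2%, 9.60% and 11.3%, lowest under the first hairpin. Over the 3 pairs the immunoproteasome share was 9.92%, 11.7% and 13.8%. These are shares of transcripts, and TPM sets the levels of different genes side by side per length of transcript.

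**Figure D3:**
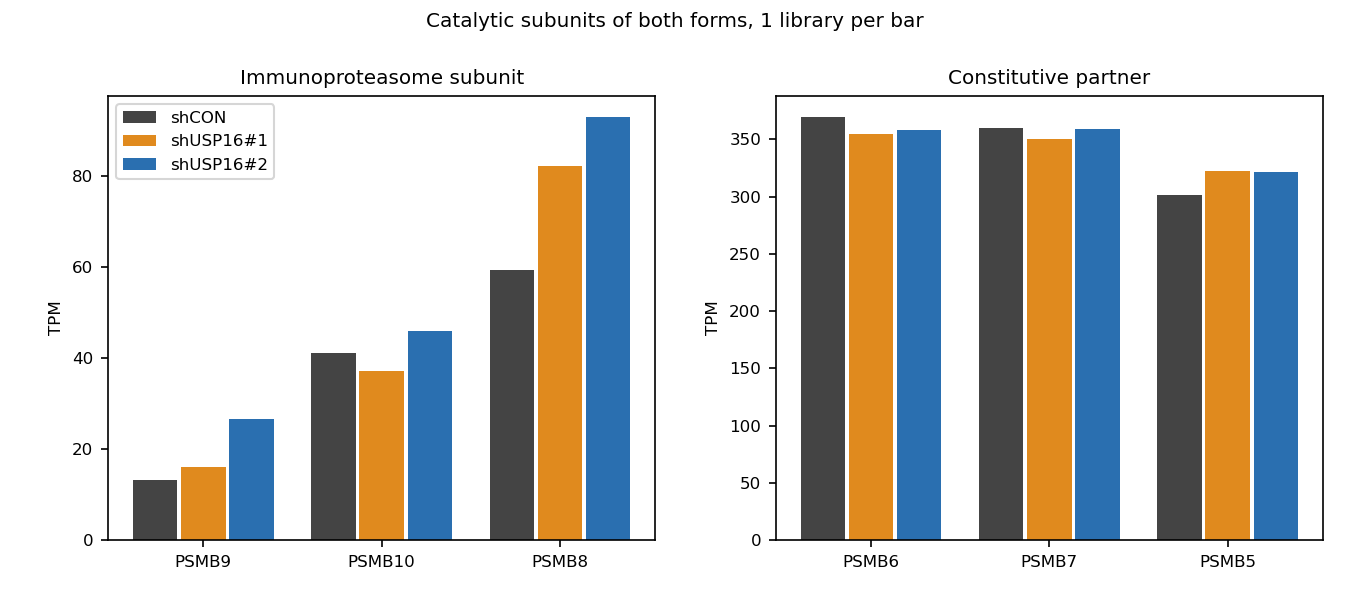
TPM of the immunoproteasome subunits (left axis) and of the constitutive subunits they replace (right axis, with a larger range), with 1 bar per library and both axes from 0. PSMB8 and PSMB9 are higher in both knockdown libraries than in shCON, to 93.04 and 26.7 TPM under shUSP16#2, while PSMB5, PSMB6 and PSMB7 stay between 302 and 370 TPM.

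PSMB8 and PSMB9 are neighbours on chromosome 6, with the peptide transporter genes TAP2 and TAP1 beside and between them in the order TAP2, PSMB8, TAP1, PSMB9. TAP1 was at 25.2, 29.3 and 33.1 TPM, so the gene between them was also higher in both knockdown libraries, by 0.21 and 0.38, but at -0.033 and 0.015 with the GC trend removed as described below. PSMB8-AS1, an antisense transcript of PSMB8, was at 1.00, 1.31 and 1.70 TPM. Whether reads were counted by strand is not given in the sources used here, so reads of PSMB8 and its antisense partner cannot be told apart. Leaving out PSMB8 and the other members with an antisense partner or a near-identical copy lowered the immunoproteasome median under shUSP16#1 to 0.061. To show what lies before the start of an immunoproteasome gene that was higher and of a constitutive catalytic gene that was steady, the 250 bases before the RefSeq starts of PSMB9 (GRCh38.p14, chr6:32853942-32854191, forward strand) and PSMB5 (chr14:23035221-23035470, reverse strand, the first of 2 listed starts) are printed 5′ to 3′. Capitals mark matches, on either strand, to the letters TGACNNNGC, the core of antioxidant response elements, CCAAT, and CCGGAAG, which ETS factors are known to bind.
PSMB9: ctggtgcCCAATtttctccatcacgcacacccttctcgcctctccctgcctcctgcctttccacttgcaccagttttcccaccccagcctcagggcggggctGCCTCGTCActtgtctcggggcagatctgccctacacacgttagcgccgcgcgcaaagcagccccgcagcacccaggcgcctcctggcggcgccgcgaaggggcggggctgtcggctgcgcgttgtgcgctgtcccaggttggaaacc
PSMB5: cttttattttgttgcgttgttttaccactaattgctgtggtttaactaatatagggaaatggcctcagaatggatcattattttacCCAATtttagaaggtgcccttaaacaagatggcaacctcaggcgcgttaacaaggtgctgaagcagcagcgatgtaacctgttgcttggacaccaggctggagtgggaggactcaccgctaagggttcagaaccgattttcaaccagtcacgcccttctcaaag
The PSMB9 window lies in the short stretch between TAP1 and PSMB9, which is known as a promoter for both genes. It held 1 match to CCAAT and 1 to TGACNNNGC, and the PSMB5 window held 1 match to CCAAT. A match is a description of letters and not a site of binding.

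In the base of the regulatory particle all 10 genes were lower under both hairpins, beside 57.2% of all tested genes. The median of the base was -0.28 and -0.45. The 6 ATPases, which form the ring that unfolds substrates, had a median of -0.40 and -0.72. PSMC6 was the lowest of them relative to shCON, at 235, 114 and 71.7 TPM in shCON, shUSP16#1 and shUSP16#2. Its change of -1.70 under shUSP16#2 was the largest of any proteasome gene on the log2(TPM + 1) scale, although by plain ratio to shCON it stood at 0.305 and the less abundant PSME4 at 0.284. PSMC1 fell from 242 TPM to 142 and 118 TPM, changes of -0.77 and -1.03. Its processed copy PSMC1P1 was at 26.6, 16.03 and 14.4 TPM, and since reads of near-identical copies can be assigned to either, the value of PSMC1 is uncertain. Summing both moved the change of PSMC1 by less than 0.1. Another listed copy, PSMC1P5, of 177 bases, was at 0, 28.5 and 4.01 TPM. It was left out of that sum, so the uncertainty remains. PSMC2 was at 53.6, 36.4 and 27.7 TPM, past 1.5-fold under shUSP16#2 alone. PSMC5, at 285, 239 and 200.5 TPM, and PSMC4, at 113, 97.8 and 89.6 TPM, were lower by less. PSMC3 stayed closest to shCON as measured, at 317, 286 and 295 TPM. The 6 transcripts of a ring built from 1 copy of each thus ranged in change from -1.70 for PSMC6 to -0.11 for PSMC3 under shUSP16#2. This order did not hold with the GC trend removed, where PSMC3 was at -0.44 and -0.52. PSMC2, at -0.095 and -0.25, was then the ATPase closest to shCON.

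Of the other base subunits, PSMD1, a large scaffold protein, fell from 82.5 TPM to 42.1 and 33.9 TPM, changes of -0.96 and -1.26. PSMD2, the second scaffold, was at 958, 776 and 728 TPM, changes of -0.30 and -0.40. The ubiquitin receptors PSMD4 and ADRM1 were closest to shCON as measured, PSMD4 at 299.6, 255 and 242 TPM and ADRM1 at 281, 272 and 240.0 TPM. The median of these 4 genes was -0.27 and -0.35, and the second became 0.016 relative to all genes. With the GC trend removed the median was -0.47 and -0.70, and ADRM1 was at -0.44 and -0.75.

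In the lid, which holds the deubiquitinase that removes ubiquitin chains before degradation, all 8 genes were lower under both hairpins. Over all tested genes 57.2% were, and the median of the lid was -0.52 and -0.71. PSMD14, that deubiquitinase, fell from 137 TPM to 77.6 and 70.6 TPM. PSMD12 had the largest fall of the lid, from 103 TPM to 47.8 and 35.8 TPM, or 0.463 and 0.347 times the level in shCON. PSMD11 fell from 59.8 TPM to 37.8 and 34.2 TPM. PSMD6 fell from 77.0 TPM to 50.6 and 45.7 TPM, with its antisense partner PSMD6-AS2 at 0.16 TPM or less in every library. PSMD7, the inactive partner of PSMD14, was at 94.9, 69.2 and 58.7 TPM and passed 1.5-fold under shUSP16#2 alone. By contrast, PSMD3 at 133, 115 and 116 TPM, PSMD8 at 333, 321 and 325 TPM, and PSMD13 at 216, 198.5 and 191 TPM were at decreases of 0.21 or less after rounding, and PSMD8 and PSMD13 were above the median of all genes. This division did not hold with the GC trend removed, where PSMD6 was at -0.17 and -0.13 and PSMD3 at -0.39 and -0.37.

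The windows of PSMC6 (GRCh38.p14, chr14:52706950-52707199, forward strand) and PSMD12 (chr17:67366578-67366827, reverse strand) are printed 5′ to 3′ as the subunits with the largest falls of the base and the lid, with capitals as before.
PSMC6: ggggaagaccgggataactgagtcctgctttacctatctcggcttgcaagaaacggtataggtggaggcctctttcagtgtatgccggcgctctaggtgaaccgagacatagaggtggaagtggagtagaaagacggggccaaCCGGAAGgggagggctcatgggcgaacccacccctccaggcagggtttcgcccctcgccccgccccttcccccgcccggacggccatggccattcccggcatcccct
PSMD12: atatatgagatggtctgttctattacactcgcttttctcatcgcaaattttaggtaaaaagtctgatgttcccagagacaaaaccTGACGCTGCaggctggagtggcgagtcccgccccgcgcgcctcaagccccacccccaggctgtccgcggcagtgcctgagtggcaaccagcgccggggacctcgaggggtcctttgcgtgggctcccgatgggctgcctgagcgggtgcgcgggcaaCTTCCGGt
The PSMC6 window held 1 match to CCGGAAG, and the PSMD12 window held 1 match to CCGGAAG, on the reverse strand at its end, and 1 to TGACNNNGC.

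By particle, all 18 genes of the regulatory particle were lower under both hairpins, and 7 of them fell, or 38.9%, beside the 20.8% of all tested genes. Relative to the median of all genes, 11 of the 18 were lower and 4 higher under both, beside 41.7% of all tested genes in each direction. Of the 14 constitutive core genes, 12 were lower and 1 higher under both, beside 57.2% and 24.5% of all tested genes. Of the 14, 3 fell, or 21.4%, close to the background of 20.8%. Relative to the median 6 core genes were lower and 6 higher, or 42.9% each, also close to the background. The median change of the regulatory particle was -0.38 and -0.60, and that of the core particle was -0.21 and -0.27, which became -0.039 and 0.099 relative to all genes. The difference of these medians, regulatory minus core, was -0.17 under shUSP16#1 and -0.33 under shUSP16#2. Without the members that have an antisense partner or a near-identical copy it was -0.089 and -0.24. Within the core, the α ring alone had a median of -0.56 and -0.63, below that of the regulatory particle. With the GC trend removed the α ring was at -0.27 and -0.19, above the regulatory particle at -0.39 and -0.49. Under the second hairpin 15 of the 18 regulatory genes were lower than under the first, and 8 of the 14 core genes, where 73.4% of all tested genes were lower. Over all 49 members 30 were, or 61.2%.

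The chaperones did not divide by particle, and genes differed within each set. Those of the regulatory particle had a median of -0.58 and -0.57, and those of the core particle -0.52 and -0.58. PSMD5, PSMD9 and PSMD10 each bind ATPases while the base is assembled. PSMD5 fell from 22.4 TPM to 12.9 and 11.5 TPM. PSMD10, also known as gankyrin, was at 58.5, 38.7 and 39.0 TPM, which is exactly 1.5-fold lower on the scale used under the first hairpin and short of it under the second. PSMD9 stayed level at 106, 102 and 99.6 TPM. For the core particle, PSMG1 and PSMG2 act as a dimer that assembles the α ring, PSMG3 and PSMG4 as a second dimer, and POMP matures the joined β rings. PSMG1 was at 83.2, 52.9 and 55.3 TPM and PSMG2 at 137, 95.4 and 76.5 TPM, both lower. PSMG3 was at 87.7, 107 and 108 TPM and PSMG4 at 48.9, 63.3 and 66.6 TPM, both higher, with changes of 0.28 and 0.30 and of 0.37 and 0.44. The genes of the dimers thus moved in opposite directions in both libraries. With the trend of GC content removed, as described below, PSMG4 kept its sign at 0.19 and 0.26 and PSMG3 was at 0.010 and -0.14. POMP fell from 118 TPM to 78.6 and 56.0 TPM. PSMG3 has an antisense partner, PSMG3-AS1, at 3.26, 2.47 and 3.59 TPM.

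The activators also differed by kind. PSME1 and PSME2 form the interferon-inducible cap PA28αβ, and their genes are separated on chromosome 14 by EMC9 alone. PSME1 was at 131, 182 and 189.8 TPM, changes of 0.48 and 0.54. It was thus higher in both knockdown libraries, and past 1.5-fold relative to the median of all genes. PSME2 was close to shCON, at 222, 230.3 and 241 TPM. The ratio of the transcripts of this shared cap therefore shifted towards PSME1. The nuclear activators were lower: PSME3 was at 112, 88.5 and 74.2 TPM, and PSME4, which encodes PA200, fell from 20.5 TPM to 8.96 and 5.82 TPM, changes of -1.11 and -1.65. PSMF1, the inhibitor PI31, was at 114, 97.1 and 100.02 TPM, changes of -0.23 and -0.19. Of the tissue forms, PSMA8, the testis variant of PSMA7, fell from 7.64 TPM to 3.62 and 3.34 TPM, and PSMB11, the thymus subunit, was listed at 0 in shCON and under shUSP16#1 and was at 0.020 TPM under shUSP16#2.

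The changes of proteasome genes followed the GC content of their transcripts. Across the 49 members the Spearman correlation of the change with the GC content of the longest transcript was 0.71 under both hairpins, and across 13296 tested genes it was 0.53 and 0.63. The genes share their library and are not independent, so these values are descriptions. The correlation with the length of the transcript was -0.56 and -0.57 over the members and -0.26 and -0.30 over all tested genes. Of the 18 members under 45% GC, 11 fell, or 61.1%, beside 42.8% of the 4636 tested genes in that range. Of the 31 members at or above 45%, 3 fell, or 9.68%, beside 9.33% of 8660 genes. The members that fell in the richer range were PSMA1, PSMC1 and PSMD11.

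**Figure D4:**
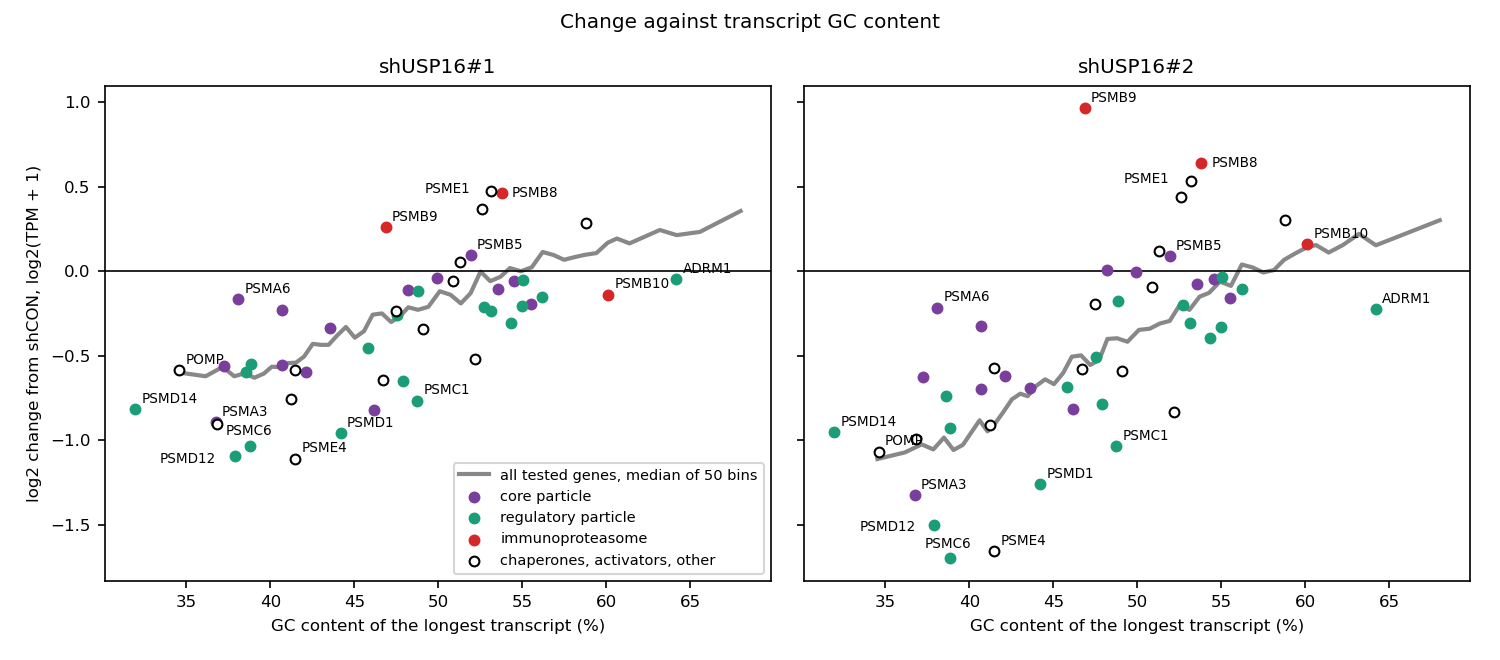
Change in log2(TPM + 1) from shCON against the GC content of the longest transcript (%), for the 49 proteasome genes under each hairpin, with the grey line at the median of all tested genes in 50 bins. Most points follow the line, PSMC1, PSMD1, PSMD12 and PSME4 lie below it in both panels, and PSMB8, PSMB9 and PSME1 lie above it.

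Setting each gene against genes of like GC content, with the overall median kept, left 38 members lower and 8 higher under both hairpins, where 61.4% and 17.2% of all tested genes were. It left 5 members lower by at least 1.5-fold under both hairpins, PSMA1, PSMC1, PSMD1, PSMD12 and PSME4, where 12.5% of all tested genes were. No member was higher by that fold, where 2.34% of all tested genes were. PSMC1 was then at -0.71 and -1.01, PSMD1 at -0.75 and -0.96, PSMD12 at -0.65 and -0.82 and PSME4 at -0.74 and -1.13. PSMC6, poor in GC at 38.8%, was at -0.58 and -1.02, just short of the fold under shUSP16#1. PSMD14, the member poorest in GC at 32.0%, moved from -0.82 and -0.95 to -0.40 and -0.22. All 18 regulatory genes were lower than shCON under both hairpins on this scale, where 61.4% of all tested genes were, and 3 of them passed the fold. The scale keeps the overall median of -0.18 and -0.37, so a gene can be lower than shCON without being lower than genes of like GC content. PSMD13, at -0.067 and -0.15, lay above that median, and PSMC1 lay below it. The difference between regulatory and core particle was -0.22 and -0.31. That between immunoproteasome and constitutive subunits was 0.42 and 0.45. The difference of the α ring from the catalytic subunits shrank from -0.52 and -0.62 to -0.17 and -0.15, and the base, above the lid by 0.24 and 0.26 as measured, lay below it by 0.11 and 0.28. PSMB10, rich in GC at 60.1%, was at -0.48 and -0.36, apart from PSMB8 at 0.32 and 0.42 and PSMB9 at 0.33 and 1.09. The part of GC content and length in these changes was not tested.

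Genes that act with the proteasome were taken from a list of 32, all of which passed the minimum. Their median change was -0.33 and -0.50, or -0.16 and -0.13 relative to all genes. Under both hairpins 24 of 32 were lower and 5 higher, beside 57.2% and 24.5% of all tested genes. Past 1.5-fold 10 fell and none rose, beside 20.8% and 4.05%. Relative to the median 17 were lower and 12 higher, beside 41.7% of all tested genes in each direction. With the GC trend removed 6 were lower past the fold, beside 12.5% of all tested genes. NFE2L1, the transcription factor known for driving proteasome genes when degradation is impaired, was close to shCON at 114, 108 and 98.2 TPM. DDI2, the protease that activates it, fell from 4.09 TPM to 1.67 and 1.04 TPM, and NGLY1, the enzyme that strips its sugars, fell from 17.8 TPM to 11.1 and 7.68 TPM. NFE2L2, the related factor of the antioxidant response, fell from 30.01 TPM to 16.8 and 11.04 TPM. All 4 ubiquitin enzymes of the list that bind the proteasome fell, and 1 of them, UBE3A, was still past the fold with the GC trend removed. USP14, which binds PSMD2, went from 88.4 TPM to 45.2 and 37.2 TPM. UCHL5, which binds ADRM1, went from 34.9 TPM to 16.2 and 13.9 TPM. The ligases UBE3A, at 27.04, 12.2 and 9.02 TPM, and UBE3C, at 48.4, 29.9 and 19.5 TPM, fell likewise. The remaining genes that fell were UBA6, an enzyme that activates ubiquitin, from 21.5 TPM to 5.64 and 6.03 TPM, and the shuttle factors RAD23B, from 59.3 TPM to 32.6 and 24.6 TPM, and UBQLN1, from 40.1 TPM to 19.9 and 14.1 TPM.

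Of the genes that encode ubiquitin itself, UBB was at 1337, 1314 and 1471 TPM and RPS27A at 2062, 1976 and 1983 TPM, both close to shCON. SEM1, a small lid subunit whose symbol lies outside the PSM names, was at 489, 356 and 253 TPM, changes of -0.45 and -0.95. Of the interferon-side regulators of the immunoproteasome, IRF1 was at 24.2, 28.8 and 19.4 TPM, higher under the first hairpin and lower under the second. NLRC5 was at 0.99, 1.16 and 2.57 TPM, near the minimum. Relative to the median of all genes, IRF1 was at 0.41 and 0.062, above it under both hairpins. Whether these regulators had a part in the levels of PSMB8 and PSMB9 was not tested.

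**Figure D5:**
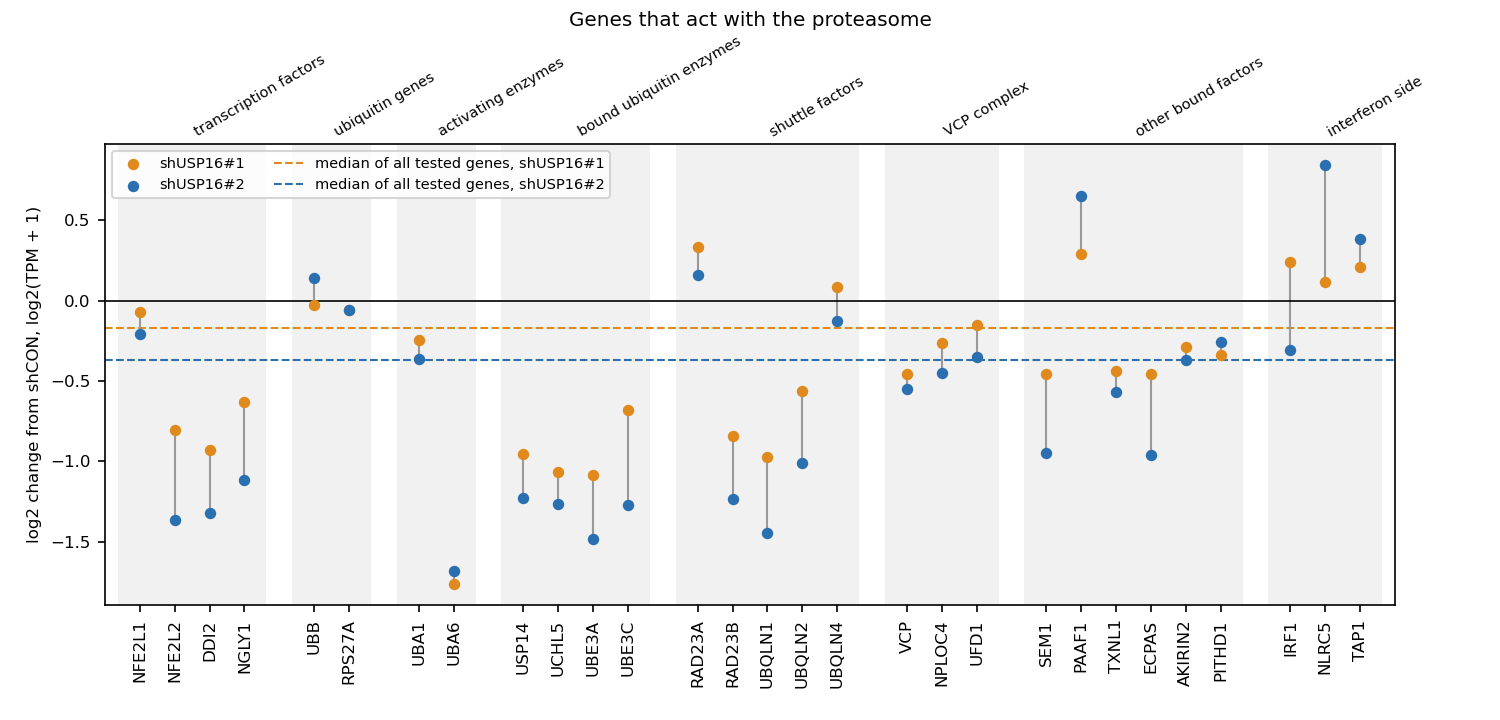
Change in log2(TPM + 1) from shCON for 29 of the 32 genes that act with the proteasome, by role, with 1 point per hairpin library and dashed lines at the median of all tested genes. The bound ubiquitin enzymes USP14, UCHL5, UBE3A and UBE3C lie below both lines, and the ubiquitin genes UBB and RPS27A lie between -0.061 and 0.14.

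The 250 bases before the RefSeq starts were searched for 44 members with a listed window, 54 windows in all, beside 35116 windows of all genes, for 7 motifs on both strands. TGACNNNGC was found in 27.8% of the member windows and 10.9% of all windows, CCGGAAG in 22.2% and 8.52%, and the GC box GGGCGG in 61.1% and 42.6%. CCAAT was found in 38.9% and 32.0%, the interferon-stimulated response element in 9.26% and 3.02%, the gamma-activated TTCNNNGAA in 13.0% and 6.57%, and the E-box CACGTG, which c-Myc is known to bind, in 5.56% and 6.34%. Member windows were richer in GC, with a median of 62.2% beside 58.0% for all windows. Among the 14 members that fell, 4 had TGACNNNGC, 6 had CCGGAAG, as in the windows of PSMC6 and PSMD12 above, and none had CACGTG. Among the 30 other members with a window, 10 had TGACNNNGC, 6 had CCGGAAG and 3 had CACGTG. PSME1, whose window (chr14:24135944-24136193, forward strand) is printed as that of the activator that was higher, had TGACNNNGC.
PSME1: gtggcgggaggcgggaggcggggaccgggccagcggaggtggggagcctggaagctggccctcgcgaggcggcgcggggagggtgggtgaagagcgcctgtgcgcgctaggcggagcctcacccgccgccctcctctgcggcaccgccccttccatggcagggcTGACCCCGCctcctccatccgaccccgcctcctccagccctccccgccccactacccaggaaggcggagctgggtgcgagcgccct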

How the data were processed

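RNA was sequenced from 3 lines of PC3 cells, 1 library each. TPM values, written to 2 decimals, were deposited by the authors in 1 table. The submitters' processing notes name CASAVA, HISAT2 and hg19, and the tool that made the TPM values, its annotation and the use of strand are not given in the sources used here. Annotation columns and 3 repeated columns of sample values were not used. Identifiers matched GENCODE release 29 for 57263 of 59719 names, from which GC content was taken. Of entries that repeat a name, the one with the highest mean was kept (1211 left out).

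Changes were computed as log2(TPM + 1) with a minimum mean of 1 TPM (13637 genes), and "called" or "fell" means at least 1.5-fold under both hairpins. With 1 library per condition no test was run. The GC trend was the median change in 50 bins of GC content. Promoter windows came from RefSeq (GRCh38.p14), and members matched by symbol, except PSMA7, PSMB1, PSMB6, PSMB7, PSMD4 and PSMG3. Since the build of the table is uncertain, no coordinates of its genes are given. Values of 3 genes of the list of 32 are not reported here, though its counts and medians include them. All members may be named, with library values for the catalytic and immunoproteasome subunits and for those that moved most in each role. The members, the list of 32 genes and the motifs were chosen with earlier results of these data known. A pseudocount of 0.1, centring, no minimum, a minimum of 5 TPM, removal of the GC trend, other folds, each hairpin alone and rescaling without short structural and mitochondrial RNA served as alternatives. The procedures were tested on simulated data. The software was Python 3.11.15 with pandas 2.3.3, numpy 2.4.6, matplotlib 3.10.9 and scipy 1.17.1.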

Additional observations from a re-analysis of the deposited data

Results flagged for a closer look

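Of the 49 proteasome genes and the 32 genes that act with them, 5 changed in opposite directions under the hairpins, which puts a single library on each side, so the difference was not tested. Among all tested genes 17.4% did so. PSMB10 was at -0.14 under shUSP16#1 and 0.16 under shUSP16#2, a difference of 0.30 on the log2 scale. PSMB4 was at -0.11 and 0.0068, a difference of 0.12. The ubiquitin gene UBB was at -0.025 and 0.14, a difference of 0.16. UBQLN4, a shuttle factor, was at 0.085 and -0.12, a difference of -0.21. IRF1, a transcription factor of the interferon response, was at 0.24 and -0.31, a difference of -0.55, the widest of the 5. Relative to the median of all genes, none of the 5 differed in direction, and all were higher under both hairpins. Other members then did differ, such as PSMA7 at -0.020 and 0.21. Of the 49, 25 were lower and 18 higher under both, beside 41.7% of all tested genes in each direction. On that scale PSMB10 was at 0.032 and 0.53, PSMB4 at 0.059 and 0.37 and UBB at 0.15 and 0.51. UBQLN4 was at 0.26 and 0.24 and IRF1 at 0.41 and 0.062.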

How the results depend on the processing

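No paired analysis was possible because a single library stood for each line. Centring on the overall median changed the medians to -0.085 and -0.028 for all members, -0.039 and 0.099 for the core particle, -0.21 and -0.23 for the regulatory particle and 0.43 and 1.01 for the immunoproteasome subunits (shUSP16#1, then shUSP16#2), and left 7 members lower and 2 higher by 1.5-fold. Removing the GC trend gave 5 lower members, a regulatory particle median of -0.49 and an immunoproteasome median of 0.42 under shUSP16#2, and an excess of immunoproteasome over constitutive subunits of 0.42 and 0.45. PSMA5 under shUSP16#2 turned from -0.63 to 0.023, and the cause was not tested. At a ratio of 5 to 4, 23 members were lower and 3 higher, beside 36.1% and 9.88% of all tested genes. At 2-fold 3 were lower, beside 4.6%. The shares of all tested genes for the other counts of this paragraph stand with those counts in the Results. With 1 hairpin left out, 16 to 21 members were lower and 0 to 2 higher, the latter PSMB8 and PSMB9 under shUSP16#2. Leaving out members with an antisense partner or near-identical copy, and summing PSMC1 with PSMC1P1, were chosen after seeing the data. The first gave an immunoproteasome median of 0.061 and an excess of 0.10 under shUSP16#1, and a regulatory particle median of -0.45 under shUSP16#2. Of 772 values of single members under the alternatives, 596 moved by less than 0.1 and 36 changed sign, 26 of them on centring, 7 on removal of the GC trend and 3 on rescaling. Of these PSMA5 alone had been past 1.5-fold. Many of the 596 values could not move. The minimum and the leaving out of other members do not enter a gene's own change, and the sum with PSMC1P1 enters that of PSMC1 alone. On centring 0 of 98 values moved by less than 0.1, and on removal of the GC trend 23 of 98 did. The difference between regulatory and core particle kept its sign wherever it was computed, but several alternatives could not change it. Centring shifts both medians alike, every gene of both particles passed each minimum, and the folds do not enter it. It was -0.22 and -0.31 with the GC trend removed. Without members with an antisense partner or near-identical copy it was -0.089 and -0.24.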
